A study of Mus musculus with 24 samples.

Results

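Heat shock proteins and cytosolic chaperones were examined in MLO-Y4 cells, a mouse line with features of osteocytes, the cells embedded in bone that sense mechanical load. The gene set holds 39 listed members: the HSP70 and HSP110 proteins, their J-domain and BAG partners, HSP90 and its co-chaperones, small heat shock proteins, mitochondrial chaperones, subunits of the TRiC chaperonin, and the heat shock factors Hsf1 and Hsf2. A member was taken as measured if the array held a probe set annotated to that gene alone, and the probe set with the highest mean was used. This gave 36 of the 39 members among 12393 genes, and Hsp90ab1, Hsf1 and Ptges3 had no such probe set.

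RNA of 24 samples was hybridised to 1 Affymetrix array each. Cells labelled flow were exposed for 2 h to oscillating fluid flow with a peak wall shear stress of 10 dyn/cm2 at 1 Hz. Cells labelled sham were kept in the same kind of chamber without flow. RNA was labelled as taken 0, 2, 8 or 24 h after the end of exposure, with 3 arrays for each treatment at each time. Cells of the 0 h groups were collected at once, and those of the later groups were moved to fresh medium until collection. All cells were of the same line, whose strain background is labelled as a mix of C57B1/6, BALB/c and DBA2, and no label says that the 3 arrays of each group stand for separate cultures. The p-values below therefore set a difference only against array-to-array spread, part of which may be technical. Values are log2 of a normalized probe set signal, on which a difference of 1 is a 2-fold difference. A lower signal from fewer cells of a kind and from less RNA per cell cannot be told apart in such bulk samples.

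The arrays were close to each other, with correlations over the 12393 genes between 0.990 and 0.999 and array medians over all probe sets between 6.71 and 6.80. They did not group by label alone. The deposited table holds the arrays in 24 columns that form 3 blocks of 8, and arrays in neighbouring columns were most alike. Columns 1, 2, 9, 10, 17 and 18 are called the first pair of positions below, columns 3, 4, 11, 12, 19 and 20 the second pair, columns 5, 6, 13, 14, 21 and 22 the third pair, and columns 7, 8, 15, 16, 23 and 24 the fourth pair. With the members left out, the most similar array lay in the same pair of positions for 24 of 24 arrays and had the same label for 16 of 24. For 22 of 24 it was the adjacent column of the same block. Among the arrays of the other 2 blocks only, the most similar one still lay in the same pair for 21 of 24. From the members alone it lay in the same pair for 18 arrays, or 17 when sought in the other blocks only, and had the same label for 8. In each of the 8 labelled groups, 2 arrays lay in one pair of positions and the other array in another pair. The values are therefore given first by label and then by position. A position says only where an array stands in the table, and no treatment or time is read from it.

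Molecular chaperones bind unfolded proteins and help them fold, move or be degraded. In the heat shock response, unfolded proteins draw chaperones away from the transcription factor Hsf1, which then forms trimers, binds heat shock elements in promoters and raises transcription of HSP70, small heat shock proteins and many co-chaperones. HSP70 proteins work in a cycle in which J-domain proteins deliver the client, and BAG and HSP110 proteins release ADP from HSP70. HSP90 takes clients over from HSP70 with the help of co-chaperones, and TRiC folds actin and tubulin, on which the cytoskeleton of a mechanosensing cell depends.

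Heat shock elements were looked for in RefSeq promoter windows of the GRCm38.p6 build, which run from 250 bases before to 50 bases after each annotated gene start. A window was found for 31 of the 36 measured members. An element of 2 units was taken as GAANNTTC or TTCNNGAA on either strand, and an element of 3 units as such a match followed at the same spacing by a further alternating unit, so that each 3-unit match also holds 2-unit matches. The 3-unit element stood in the windows of 5 of the 31 members (16.1%), namely Hspd1, Hspe1, Hsph1, Dnajb6 and Chordc1, and in 0.577% of the 9887 measured genes that have a window. The 2-unit element stood in 16 of the 31 members (51.6%) and in 14.9% of those genes. The stretches below are printed 5′ to 3′ on the gene's strand for members with a match that are among the 6 of widest range over the arrays or whose element has 3 units, and capitals mark the bases of the matches.
Hspa1b, chr17:34959315-34959362, minus strand: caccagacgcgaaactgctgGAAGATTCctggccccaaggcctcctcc
Hspb1, chr5:135887782-135887849, plus strand: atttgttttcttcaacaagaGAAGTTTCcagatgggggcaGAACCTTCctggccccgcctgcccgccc
Dnajb4, chr3:152193832-152193879, minus strand: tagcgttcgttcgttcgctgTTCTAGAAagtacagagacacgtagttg
Dnajb6, chr5:29735832-29735884, plus strand: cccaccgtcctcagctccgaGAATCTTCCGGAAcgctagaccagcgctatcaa
Hspe1, chr1:55088039-55088096, plus strand: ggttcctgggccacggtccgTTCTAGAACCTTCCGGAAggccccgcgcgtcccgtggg
Chordc1, in the window chr9:18292017-18292316, plus strand: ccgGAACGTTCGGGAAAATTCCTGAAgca
Hsph1, in the window chr5:149636266-149636565, minus strand: agaTTCTGGAAAGTTCtcc
The stretch of Hspa1a was the same as that of Hspa1b, and Hspd1 is read from the other strand of the stretch shown for Hspe1, since these genes lie head to head. A match is a description of the letters and not a measured binding site.

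All measured members except Hspa1a stood at 6 or more on all 24 arrays. Hspa1a, one of the pair of near-identical inducible HSP70 genes, stood between 3.32 and 3.80 on all 24, so no change of it can be read. Its copy Hspa1b had the widest range of the members, 2.30, with values between 6.85 and 9.15. Since probes can bind both copies, the values of Hspa1a and Hspa1b are uncertain as to the gene. Hspb1, the small heat shock protein that binds and protects actin filaments, followed with a range of 1.37, between 9.86 and 11.23. Chordc1, an HSP90 co-chaperone, ranged over 0.87, Hsph1, an HSP110 exchange factor, over 0.78, and Cryab and Dnajb4 over 0.75 each. The 7 measured TRiC subunits ranged over 0.19 to 0.30.

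By label, no member passed the test of flow against sham at any of the 4 times. At an adjusted p-value under 0.05 (limma, Benjamini-Hochberg over 12393 genes), 0 of 36 members and 0% of all genes were called at each of them. At an unadjusted p-value under 0.05, 9 members were higher in flow than in sham at 0 h, beside 8.42% of genes, and 0 lower, beside 5.53%. At 2 h, 2 were higher (5.99% of genes) and 1 lower (7.58%). At 8 h, 2 were higher (6.63% of genes) and 7 lower (7.74%), and at 24 h, 1 was higher (9.8% of genes) and 2 lower (5.7%). The test of flow against sham over the 4 times together called 0 members and 0% of genes, with 13 members and 23.3% of genes at an unadjusted p-value under 0.05. The test of whether the difference changed between times also called 0 members and 0% of genes, with 16 members and 27.3% of genes unadjusted. Its smallest adjusted p-values among the members were 0.0805 for Chordc1 and 0.0807 for Hsph1. Between the 4 labelled times, with flow and sham averaged, 0 members and 0.815% of genes passed. Over the 8 labelled groups at once it was 0 members and 0.662% of genes. With array weights, by which limma gives less weight to arrays that fit their group poorly, 9, 5, 17 and 9 members were called at 0, 2, 8 and 24 h, beside 18.8%, 18.7%, 25.4% and 19.1% of genes. An array that lies in another pair of positions than the rest of its label may be among those given less weight. How far the weights follow position was not tested, so these calls cannot be read as effects of flow apart from position.

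**Figure D1:**
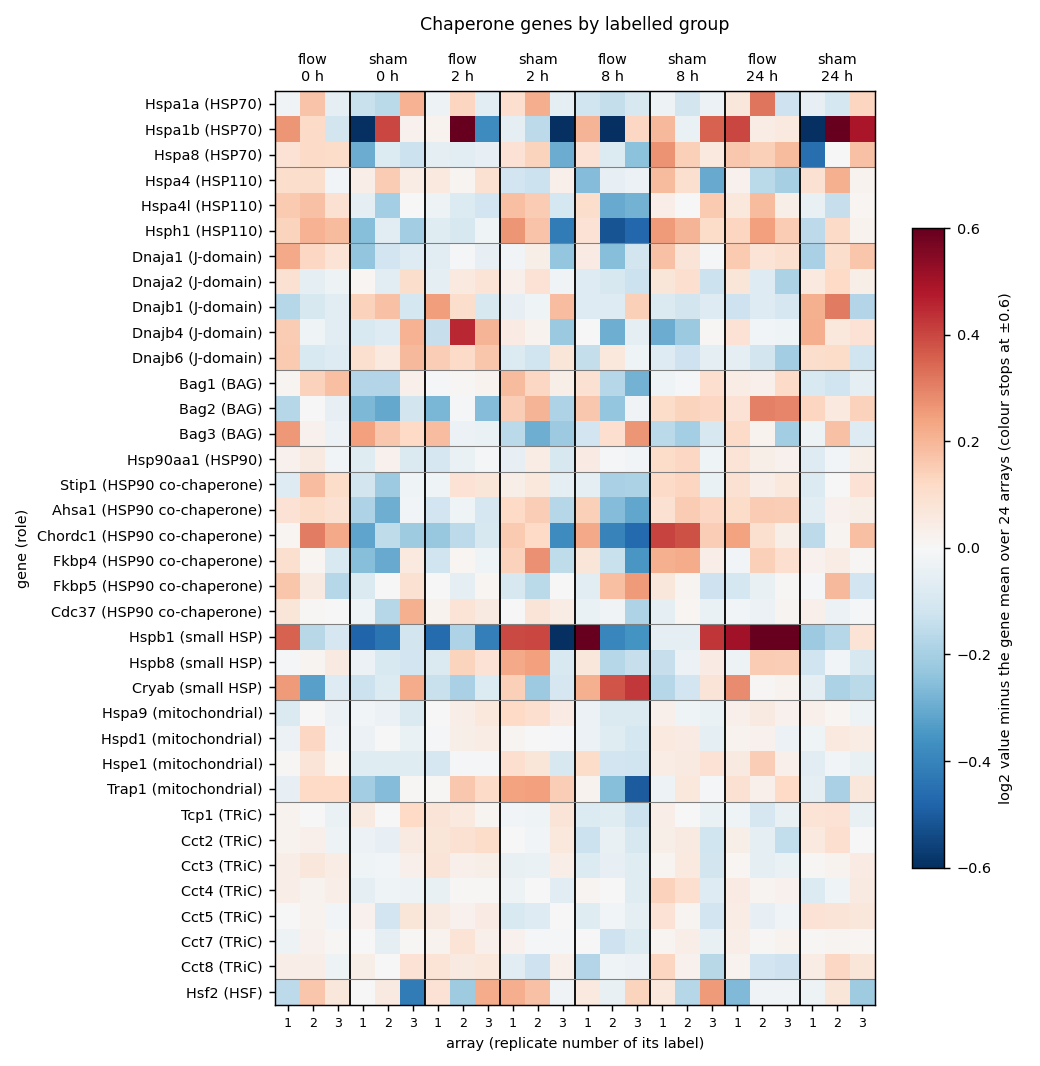
Each row is 1 of the 36 measured genes and each column 1 of the 24 arrays, ordered by labelled time with flow left of sham and replicates 1 to 3 in order. Colour is log2 signal minus the gene's mean over all arrays and stops at 0.6 in either direction. Single arrays of a label stand apart from the other two across many rows, for example flow 8 h replicate 1 and sham 2 h replicate 3.

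The direction of the group means differed from time to time. At 0 h the mean was higher in flow than in sham for 28 of 36 members, with a median difference of 0.063, where 53.1% of all genes were higher, with a median of 0.0096. At 2 h it was higher for 18 members, with a median of 0.005 beside 0.0019 over all genes. At 8 h it was higher for 7 members, with a median of -0.083 beside 0.0089. At 24 h it was higher for 20 members, with a median of 0.040 beside 0.0144. With the pair of positions as a block, 18 members had a higher mean in flow at 0 h and 12 at 8 h. The members are not independent of each other, and these counts carry no test.

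At 0 h the smallest p-values belonged to Dnaja1, Bag1 and Chordc1. Dnaja1, a J-domain protein that hands unfolded proteins to HSP70, stood at 11.88, 11.77 and 11.73 on the flow arrays (replicates 1, 2 and 3, the order kept below), against 11.41, 11.53 and 11.57 on the sham arrays. All 3 flow arrays lay above all 3 sham arrays, and the difference was 0.29 (standard error 0.093, adjusted p = 0.218, limma). Bag1, a nucleotide exchange factor of HSP70, stood at 10.99, 11.11 and 11.15 on flow arrays, against 10.80, 10.80 and 11.002 on sham arrays, a difference of 0.22 (standard error 0.080, adjusted p = 0.241, limma). Here the lowest flow array and the highest sham array overlapped by a small margin. Chordc1 stood at 11.06, 11.36 and 11.28 on flow arrays, against 10.73, 10.90 and 10.83 on sham arrays, a difference of 0.41 (standard error 0.15, adjusted p = 0.258, limma), and its groups did not overlap. Counting all members, the 3 flow arrays lay above the 3 sham arrays for 10 of 36 at 0 h, among them Hspa8, Hspe1, Hsph1 and Ahsa1, and below them for 0. Such a higher flow group was found for 11.1% of all genes.

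At 2 h the smallest p-values belonged to Bag3, Dnajb6 and Bag2. Bag3, which links HSP70 to small heat shock proteins and to autophagy of damaged filaments, stood at 10.00, 9.78 and 9.77 on flow arrays, against 9.65, 9.52 and 9.59 on sham arrays, a difference of 0.26 (standard error 0.10, adjusted p = 0.345, limma). Dnajb6, a J-domain protein that holds back aggregation of polyglutamine proteins, stood at 10.04, 10.01 and 10.06 on flow arrays, against 9.81, 9.77 and 9.97 on sham arrays, a difference of 0.19 (standard error 0.080, adjusted p = 0.345, limma). For both genes the flow arrays lay above the sham arrays without overlap. Bag2, which inhibits ubiquitination by the chaperone-bound ligase CHIP, stood at 8.74, 9.01 and 8.76 on flow arrays, against 9.16, 9.22 and 8.83 on sham arrays, a difference of -0.24 (standard error 0.11, adjusted p = 0.346, limma), and its groups overlapped. Hspa1b showed the most spread at this time, with 8.30, 8.93 and 7.90 on flow arrays, against 8.22, 8.12 and 6.85 on sham arrays. Its difference was 0.65 (standard error 0.38, adjusted p = 0.433, limma), and the sham 2 h array of replicate 3 had the lowest Hspa1b value of all 24. At 2 h, the 3 flow arrays lay above the 3 sham arrays for 5 members and below them for 1, Bag1, where 18.4% of all genes had such separate groups in either direction.

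At 8 h the smallest p-values belonged to Chordc1, Hsph1 and Cryab. Chordc1 stood at 11.28, 10.65 and 10.58 on flow arrays, against 11.46, 11.43 and 11.20 on sham arrays, a difference of -0.53 (standard error 0.15, adjusted p = 0.230, limma). Hsph1 stood at 11.65, 11.04 and 11.09 on flow arrays, against 11.82, 11.76 and 11.67 on sham arrays, a difference of -0.49 (standard error 0.15, adjusted p = 0.230, limma). In both genes replicate 1 of flow 8 h was close to the sham arrays while replicates 2 and 3 were low. Cryab, a small heat shock protein abundant in muscle and lens, stood at 7.26, 7.42 and 7.47 on flow arrays, against 6.87, 6.93 and 7.12 on sham arrays, a difference of 0.41 (standard error 0.13, adjusted p = 0.230, limma), with no overlap. Without flow 8 h replicate 1, 6 of 36 members passed the test at 8 h, beside 672 of 12393 genes, and the change of the difference between times was called for 10 members, beside 16.5% of genes. At 8 h, flow lay above sham on all arrays for 1 member and below it for 3 (Hsph1, Stip1 and Tcp1), beside 12.9% of genes in either direction.

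At 24 h the smallest p-values belonged to Hspb1, Cct8 and Hspa4. Hspb1 stood at 10.99, 11.18 and 11.23 on flow arrays, against 10.27, 10.32 and 10.57 on sham arrays, a difference of 0.75 (standard error 0.26, adjusted p = 0.290, limma), and the groups did not overlap. Cct8, a TRiC subunit, stood at 12.29, 12.15 and 12.14 on flow arrays, against 12.31, 12.39 and 12.34 on sham arrays, a difference of -0.15 (standard error 0.069, adjusted p = 0.306, limma), also without overlap. Hspa4, an HSP110 exchange factor, stood at 11.65, 11.47 and 11.43 on flow arrays, against 11.72, 11.84 and 11.65 on sham arrays. Its difference was -0.22 (standard error 0.10, adjusted p = 0.311, limma), and with the mean of all its probe sets the difference was 0.068, in the other direction. At 24 h, flow lay above sham on all arrays for 7 members and below it for 2, beside 19.8% of genes in either direction.

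**Figure D2:**
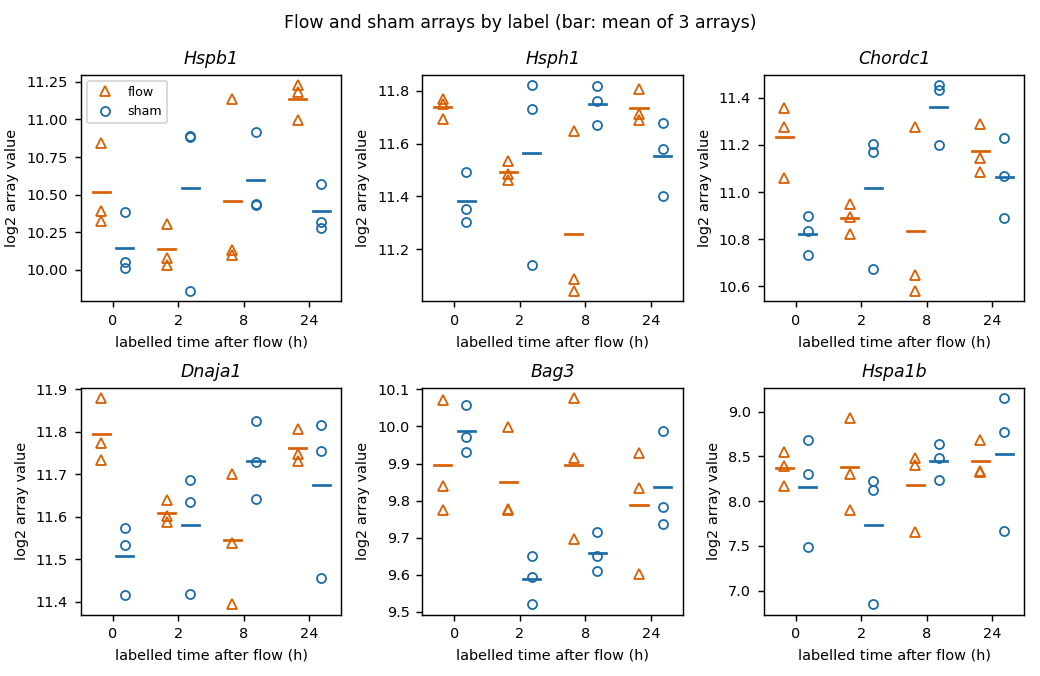
Log2 signal of Hspb1, Hsph1, Chordc1, Dnaja1, Bag3 and Hspa1b on every array by labelled time in hours, with triangles for flow, circles for sham and a bar for the mean of 3 arrays. The 3 flow 24 h arrays of Hspb1 lie between 10.99 and 11.23, above the sham 24 h arrays, whereas at 2 h and 8 h a single array of a group lies far from the other two.

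The arrays that stand apart within a label can be followed in Hspb1. At 2 h Hspb1 stood at 10.03, 10.30 and 10.08 on flow arrays, against 10.88, 10.89 and 9.86 on sham arrays. At 8 h it stood at 11.13, 10.10 and 10.13 on flow arrays, against 10.44, 10.43 and 10.92 on sham arrays. In 3 of these groups 1 array stands far from the other 2. Of these arrays, sham 2 h replicate 3 lies in the first pair of positions, and flow 8 h replicate 1 and sham 8 h replicate 3 lie in the fourth. The flow 2 h group did not show this. Its replicate 1 lies in the first pair, at 10.03, close to replicate 3 in the second pair, at 10.08. At 0 h Hspb1 stood at 10.84, 10.32 and 10.39 on flow arrays, against 10.01, 10.05 and 10.38 on sham arrays. The lone arrays there, replicate 1 of flow and replicate 3 of sham, both lie in the second pair.

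With the 8 arrays left out that lie in another pair of positions than the other arrays of their label, an alternative chosen after seeing the data, each group held 2 arrays. Each label then lies in 1 pair only, so label and position cannot be told apart. At 0 h, 11 members were then higher and 0 lower in flow (the third pair) than in sham (the first pair), where 19.1% of genes were called in either direction. They include Chordc1, with a difference of 0.50 (adjusted p = 0.000964, limma), and Ahsa1, with 0.34 (adjusted p = 0.00241, limma). At 2 h, 2 were higher and 6 lower in flow (the second pair) than in sham (the fourth pair), beside 19.5% of genes, with Hspb1 at -0.70 (adjusted p = 0.000101, limma). At 8 h, 2 were higher and 12 lower in flow (the first pair) than in sham (the third pair), beside 21.1% of genes, with Chordc1 at -0.83 (adjusted p = 4.31e-05, limma), Hsph1 at -0.73 (adjusted p = 0.000294, limma) and Fkbp4 at -0.46 (adjusted p = 0.00133, limma). At 24 h, 4 were higher and 6 lower in flow (the fourth pair) than in sham (the second pair), beside 23.5% of genes, with Hspb1 at 0.91 (adjusted p = 6.70e-06, limma) and Hspa4 at -0.33 (adjusted p = 0.00450, limma). With all 24 arrays and the pair of positions as a block in the fit, 0 members were called at each of the 4 times.

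By position, about as many members passed as did not. The split was proposed with results of these data known, so its p-values describe the size of the differences relative to the spread and are no independent evidence. In the test over the 8 places within a block, with the block as a term, 19 of 36 members (52.8%) passed at an adjusted p-value under 0.05, beside 35.9% of all genes. All genes include 4422 dim ones, with values of 6 or more on fewer than 3 arrays, and among the members only Hspa1a is so dim. The 2 shares are therefore not for genes of like signal. With the RNA quality controls described below as further terms, 5 of the 19 calls were kept and 14 lost, and 0 members were called in the second against the first or in the fourth against the third pair. Of these 19, 15 (78.9%) had their lowest mean in the first pair of positions, which held for 36.8% of the genes called. The other 4, Hspa4, Dnajb6, Bag3 and Cct8, were lowest in the fourth pair. A lowest mean in the first pair is not particular to the members. It held for 8 of 11 called endoplasmic reticulum chaperones, 6 of 8 called proteasome subunits and 5 of 6 called further mitochondrial genes. For called further J-domain genes it was 4 of 14. Between the neighbouring columns of a pair, 0 members and 0% of genes passed in each of the 4 pairs, with 3, 5, 0 and 0 members and 8.61%, 6.89%, 4.2% and 4.28% of genes at an unadjusted p-value under 0.05. Between the 3 blocks, 0 members and 1.15% of genes passed. The results below are therefore given for the 4 pairs with 6 arrays each, as the mean with its SD or as the lowest, median and highest value. An adjusted p-value printed beside the values of all 4 pairs is from the test over the 8 places with 3 arrays each. It is not a test of the 4 pairs.

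**Figure D3:**
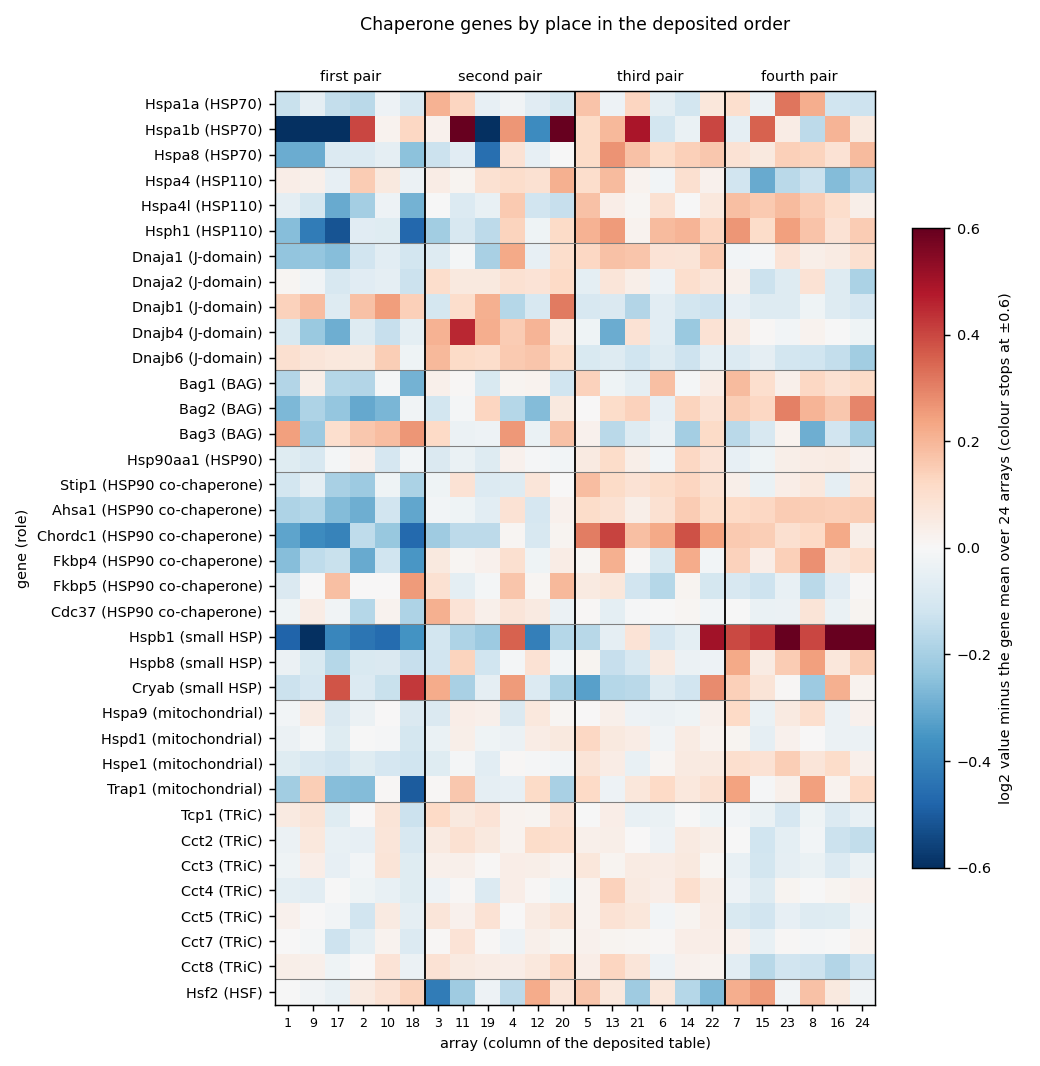
The same 36 genes and 24 arrays, with the arrays ordered by the 4 pairs of positions and colour showing log2 signal minus the gene's mean, stopping at 0.6 in either direction. The left group of columns, the first pair, is low for most of the genes that passed, among them Chordc1, Hsph1, Hspb1 and Ahsa1, and Dnajb6 and Bag3 run the other way.

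In the second against the first pair, 6 members were higher, beside 1.69% of genes, and 0 lower, beside 2.52% of genes (4.2% in either direction). The means of 32 of 36 members were higher in the second pair, with a median difference of 0.080, where 55.9% of all genes were higher, with a median of 0.0116. In the third against the second pair, 4 members were higher (10.8% of genes) and 2 lower (7.31%), and 18.1% of genes were called in either direction. In the fourth against the third pair, 3 were higher (12.9% of genes) and 5 lower (9.43%), and the 22.3% of genes called in either direction is near the members' share. All 6 arrays of the second pair lay above all 6 of the first for 5 members, namely Dnaja2, Dnajb4, Ahsa1, Fkbp4 and Hspe1, beside 0.605% of genes. All 6 of the third pair lay above the second for Chordc1, Hspa8 and Stip1, beside 4.84% of genes, and below it for Dnajb6, beside 3.17%. All 6 of the fourth pair lay below the third for 5 members, namely Hspa4, Stip1, Cct3, Cct5 and Cct8, beside 6.29% of genes.

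Of the HSP70 proteins, 2 of 3 passed the test over positions. Hspa8, the constitutive HSP70 that folds newly made proteins and uncoats clathrin vesicles, averaged 13.17 ± 0.12 in the first pair of positions, 13.24 ± 0.19 in the second, 13.51 ± 0.06 in the third and 13.46 ± 0.05 in the fourth (SD, n = 6 each, adjusted p = 0.00164, limma). The step was between the second and the third pair, with a difference of 0.27 (standard error 0.061, adjusted p = 0.00471, limma). All 6 arrays of the third pair, from 13.46 upward, lay above those of the second, which reached 13.43, and the other 3 Hspa8 probe sets also had higher means in the third than in the second pair.

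The stress-inducible Hspa1b passed with an adjusted p-value of 0.0383 (limma). Its lowest, median and highest values were 6.85, 7.98 and 8.68 in the first pair, 7.67, 8.43 and 9.15 in the second, 8.17, 8.44 and 8.77 in the third, and 8.12, 8.33 and 8.64 in the fourth. The first pair held both low and high arrays. Columns 2, 10 and 18 stood at 8.68, 8.30 and 8.40, against 7.48, 6.85 and 7.66 in columns 1, 9 and 17, a difference of 1.13 (standard error 0.29, adjusted p = 0.387, limma, unadjusted p = 0.00116). All 3 probe sets of Hspa1b had their lowest mean in the first pair. Without sham 2 h replicate 3, the array with the lowest value, the adjusted p-value over positions was 0.286, and it lay above 0.05 in 12 of 24 fits that each left out 1 array.

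All 3 HSP110 proteins, which exchange nucleotides on HSP70 and help it to take aggregates apart, passed. Hsph1, itself a stress-inducible gene whose window holds a 3-unit element, had lowest, median and highest values of 11.04, 11.22 and 11.49 in the first pair, 11.35, 11.50 and 11.69 in the second, 11.58, 11.76 and 11.82 in the third, and 11.65, 11.72 and 11.82 in the fourth (adjusted p over positions = 8.13e-05, limma). In the second against the first pair the difference was 0.26 (standard error 0.061, adjusted p = 0.0201, limma), and for the third against the second pair it was 0.21 (standard error 0.061, adjusted p = 0.0218, limma). The second Hsph1 probe set was also lowest in the first pair, with means of 10.40, 10.64, 10.91 and 10.86 in the first to the fourth pair.

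Hspa4 took another course. It stood at 11.58, 11.66 and 11.78 in the first pair (lowest, median and highest), 11.65, 11.72 and 11.84 in the second, 11.61, 11.69 and 11.82 in the third, and 11.33, 11.45 and 11.51 in the fourth (adjusted p over positions = 0.00143, limma). In the fourth against the third pair the difference was -0.26 (standard error 0.046, adjusted p = 0.000371, limma), without overlap. Its other probe sets did not share this: one had means of 9.96, 9.87, 10.01 and 10.10 and the other 8.80, 8.53, 8.64 and 8.66 in the first to the fourth pair. Hspa4l, the third of the family, averaged 9.45 ± 0.12, 9.57 ± 0.11, 9.67 ± 0.06 and 9.75 ± 0.06 (SD, n = 6 each, adjusted p = 0.00398, limma), with each pair above the one before it in mean. The second Hspa4l probe set did not share this rise, with means of 8.92, 9.05, 8.93 and 9.02.

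Of the J-domain proteins, 3 of 5 passed, and each had its own profile. Dnajb6 stood at 9.87, 9.96 and 10.04 in the first pair (lowest, median and highest), 10.00, 10.03 and 10.09 in the second, 9.77, 9.81 and 9.84 in the third, and 9.68, 9.78 and 9.84 in the fourth (adjusted p over positions = 8.82e-05, limma). In the third against the second pair it was lower by -0.23 (standard error 0.032, adjusted p = 9.14e-05, limma), and no array of the third pair reached the second. With the mean of its 4 probe sets that difference was -0.020 (adjusted p = 0.758, limma). Of the other probe sets, 2 were highest in the third pair, with means of 7.47, 7.66, 7.94 and 7.74 for one and 5.53, 5.67, 5.76 and 5.68 for the other, and the remaining one was highest in the second pair.

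Dnajb4, another cytosolic J-domain partner of HSP70, stood at 10.34, 10.52 and 10.58 in the first pair, 10.70, 10.84 and 11.09 in the second, 10.34, 10.59 and 10.72 in the third, and 10.61, 10.64 and 10.68 in the fourth (lowest, median and highest, adjusted p over positions = 0.00630, limma). It was highest in the second pair, by 0.36 against the first (standard error 0.065, adjusted p = 0.00385, limma), and the third pair was lower than the second by -0.29 (standard error 0.065, adjusted p = 0.00384, limma). Dnaja1 averaged 11.48 ± 0.08, 11.65 ± 0.15, 11.78 ± 0.04 and 11.69 ± 0.05 (SD, n = 6 each, adjusted p = 0.000625, limma), so it was lowest in the first pair and highest in the third. Its second probe set had means of 9.93, 10.03, 9.77 and 9.77, and with the mean of both the third pair was lower than the second by -0.065. Dnaja2 and Dnajb1 did not pass. Dnajb1, the main J-domain partner of HSP70 in the stress response, averaged 10.44 ± 0.11, 10.35 ± 0.20, 10.19 ± 0.04 and 10.23 ± 0.03. Its other probe set had another order, with means of 9.24, 9.55, 9.34 and 9.33.

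All 3 BAG genes passed, in both directions. Bag2 stood at 8.71, 8.77 and 8.996 in the first pair (lowest, median and highest), 8.76, 8.96 and 9.14 in the second, 8.97, 9.11 and 9.15 in the third, and 9.14, 9.20 and 9.32 in the fourth (adjusted p over positions = 7.19e-05, limma). Each pair overlapped with the next, and for the fourth against the third pair the difference was 0.14 (standard error 0.046, adjusted p = 0.0403, limma). Bag1 averaged 10.84 ± 0.12, 10.95 ± 0.06, 11.02 ± 0.10 and 11.08 ± 0.05 (SD, n = 6 each, adjusted p = 0.0243, limma). Bag3 ran the other way, with 9.94 ± 0.18, 9.89 ± 0.13, 9.76 ± 0.12 and 9.67 ± 0.11 (adjusted p = 0.0288, limma), and was the only called member with its highest mean in the first pair. Bag1 and Bag3 each lost the call when certain single arrays were left out, with adjusted p-values up to 0.0718 and 0.0808 (limma).

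Hsp90aa1, the inducible cytosolic HSP90 and the only cytosolic HSP90 gene measured, averaged 12.87 ± 0.05, 12.88 ± 0.04, 12.98 ± 0.05 and 12.93 ± 0.04 and did not pass. Of its 6 measured co-chaperones, 4 did. Chordc1 had the smallest p-value over positions among the members (adjusted p = 2.18e-06, limma). It stood at 10.58, 10.70 and 10.90 in the first pair (lowest, median and highest), 10.83, 10.92 and 11.07 in the second, 11.23, 11.32 and 11.46 in the third, and 11.08, 11.18 and 11.28 in the fourth. In the second against the first pair the difference was 0.22 (standard error 0.048, adjusted p = 0.0124, limma), for the third against the second pair it was 0.39 (standard error 0.048, adjusted p = 3.40e-05, limma), and for the fourth against the third pair it was -0.16 (standard error 0.048, adjusted p = 0.0222, limma). All 6 arrays of the third pair lay above all 6 of the second. Its window holds the longest run of alternating units among those shown above.

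Ahsa1, which activates the ATPase of HSP90, stood at 10.77, 10.86 and 10.97 in the first pair, 10.98, 11.06 and 11.17 in the second, 11.12, 11.18 and 11.23 in the third, and 11.20, 11.23 and 11.23 in the fourth (lowest, median and highest, adjusted p over positions = 5.26e-05, limma). All 6 arrays of the second pair lay above the first, with a difference of 0.21 (standard error 0.039, adjusted p = 0.00609, limma). No heat shock element match was found in its window. Fkbp4, an immunophilin of steroid receptor complexes, averaged 10.06 ± 0.10, 10.31 ± 0.04, 10.33 ± 0.13 and 10.40 ± 0.08 (SD, n = 6 each, adjusted p = 0.00490, limma). Stip1, which bridges HSP70 and HSP90, averaged 10.36 ± 0.08, 10.49 ± 0.07, 10.61 ± 0.04 and 10.51 ± 0.05 (adjusted p = 0.0117, limma). Both were lowest in the first pair. The kinase co-chaperone Cdc37 and the glucocorticoid-induced Fkbp5 did not pass.

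**Figure D4:**
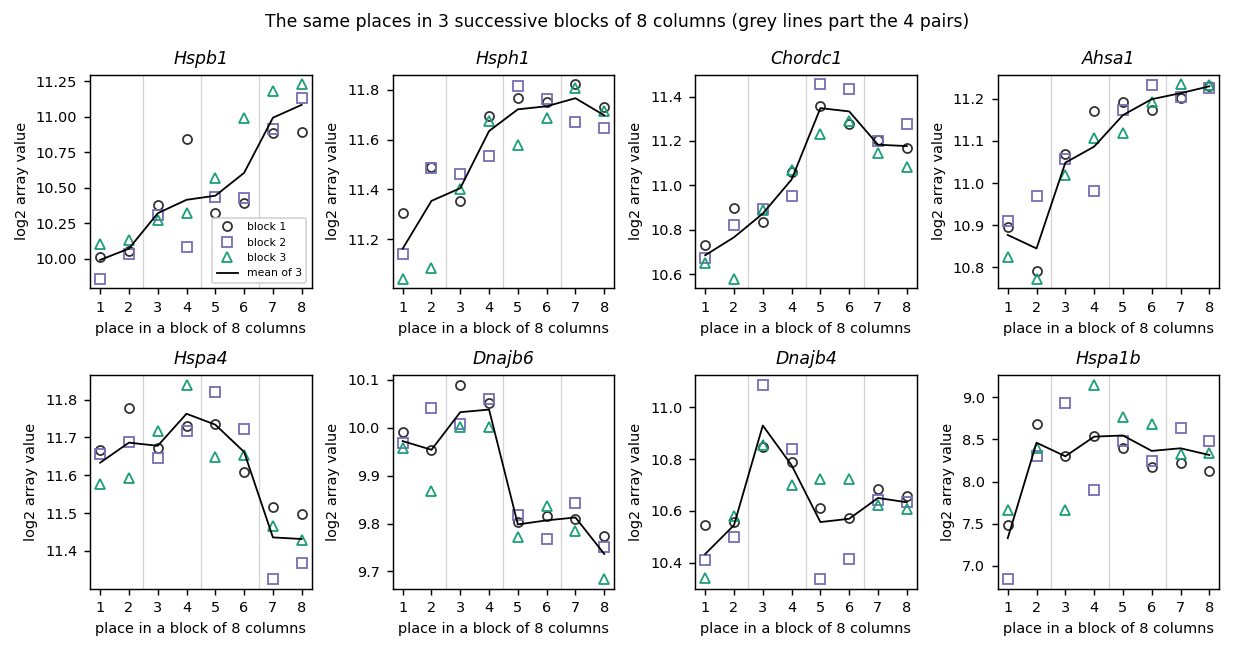
Log2 signal of 8 members against the place of the array within its block of 8 columns, with 1 point for each of the 3 blocks and a line through the means. Hspb1, Hsph1, Chordc1 and Ahsa1 are lowest at places 1 and 2, Hspa4 is lowest at places 7 and 8, Dnajb4 is highest at places 3 and 4, and Dnajb6 is lower from place 5 on.

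Of the 3 small heat shock proteins, Hspb1 and Hspb8 passed. Hspb1 stood at 9.86, 10.04 and 10.13 in the first pair (lowest, median and highest), 10.08, 10.31 and 10.84 in the second, 10.32, 10.43 and 10.99 in the third, and 10.88, 11.03 and 11.23 in the fourth (adjusted p over positions = 6.15e-05, limma). In the fourth against the third pair the difference was 0.52 (standard error 0.10, adjusted p = 0.00144, limma), and for the second against the first pair it was 0.34 (standard error 0.10, adjusted p = 0.0798, limma). Its second probe set gave the same order, with means of 9.66, 10.02, 10.24 and 10.74. The highest arrays of the second and of the third pair, at 10.84 and 10.99, were flow 0 h replicate 1 and flow 24 h replicate 1. Hspb8, the partner of Bag3 in chaperone-assisted autophagy, averaged 11.17 ± 0.05, 11.26 ± 0.10, 11.23 ± 0.07 and 11.42 ± 0.08 (SD, n = 6 each, adjusted p = 0.0178, limma), and was higher in the fourth than in the third pair by 0.19 (standard error 0.048, adjusted p = 0.00859, limma). Its adjusted p over positions reached 0.0509 when 1 array was left out. So Hspb8 and Bag3, which act in one complex, had opposite ends of their range in the fourth pair. Cryab did not pass over positions, with lowest, median and highest values of 6.91, 6.95 and 7.47 in the first pair, 6.85, 6.97 and 7.30 in the second, 6.72, 6.91 and 7.33 in the third, and 6.83, 7.09 and 7.26 in the fourth, all 4 overlapping.

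Among the chaperones of the mitochondrial matrix, 1 of 4 passed. Hspe1, the co-chaperonin that caps the HSP60 ring, averaged 12.80 ± 0.02, 12.87 ± 0.03, 12.93 ± 0.04 and 12.98 ± 0.04 (SD, n = 6 each, adjusted p = 0.00433, limma). Hspd1, the HSP60 gene that shares a promoter stretch with it, averaged 12.85 ± 0.04, 12.89 ± 0.04, 12.93 ± 0.05 and 12.87 ± 0.03 and did not pass. Hspa9, the mitochondrial HSP70, and Trap1, the mitochondrial HSP90, did not pass either.

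Of the 7 TRiC subunits, Cct8 passed. It averaged 12.28 ± 0.04, 12.33 ± 0.03, 12.31 ± 0.05 and 12.14 ± 0.04 (SD, n = 6 each, adjusted p = 0.00436, limma), and the fourth pair lay below the third by -0.17 (standard error 0.034, adjusted p = 0.00124, limma). Cct5 and Cct3 were also lower in the fourth than in the third pair, by -0.11 and -0.10 (adjusted p = 0.0230 and 0.0292, limma). The other 4 subunits did not pass in any of the 3 steps. Hsf2, the only heat shock factor measured among the members, averaged 6.73 ± 0.07, 6.60 ± 0.23, 6.63 ± 0.18 and 6.80 ± 0.12 and did not pass.

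How much of each gene's spread lay between groups was compared for both groupings. For the members, a median of 49.0% of the variance over the 24 arrays lay between the 8 labelled groups and 64.9% between the 8 places, and over all genes these medians were 41.3% and 47.9%. A filter kept the 7971 genes with values of 6 or more on at least 3 arrays. Their medians were 45.5% and 59.7%, beside 51.6% and 66.4% for the 35 members kept, so the members were then closer to the other genes. The share was larger by place for 30 of 36 members and for 8114 of 12393 genes. Chordc1 had the highest share by place, 91.1%. The share was larger by label for Bag3, Tcp1, Trap1, Cct7, Cryab and Hspa9, and it was highest for Hspa9, with 75.3% between labelled groups and 19.3% between places. These shares are descriptions of 24 arrays in groups of 3. In groups this small a sizeable share lies between groups even where they do not differ. The groupings also overlap, since most arrays of each label lie in one pair of positions, so the share by label holds part of that by position.

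**Figure D5:**
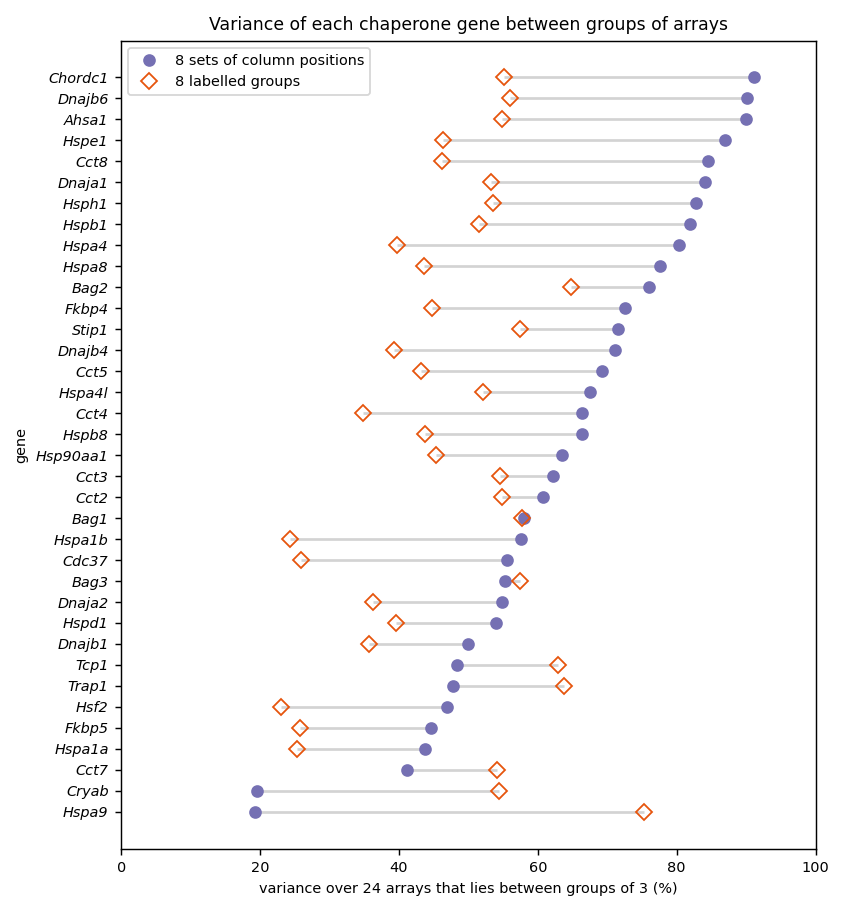
For each of the 36 measured members, the percent of its variance over the 24 arrays that lies between the 8 labelled groups and the percent that lies between the 8 places within a block. Most members lie on the side of the place, with Chordc1 at 91.1%, and Hspa9 lies farthest on the side of the label, with 75.3% by label and 19.3% by place.

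RNA quality was followed by control probe sets for the 3′ and 5′ ends of Gapdh and actin. The 3′ minus 5′ difference of Gapdh averaged -0.115 in the first pair of positions, -0.162 in the second, -0.150 in the third and -0.168 in the fourth, and that of actin 0.196, 0.170, 0.198 and 0.241 (log2, n = 6 each). With both differences as terms in the fit over positions, 5 members passed, namely Chordc1 (adjusted p = 0.00079, limma), Dnaja1, Dnajb6, Hsph1 and Hspa1b, beside 10.1% of genes. By label, actin was -0.076 lower in flow than in sham at 2 h and 0.063 higher at 24 h, and Gapdh was 0.038 higher at 8 h, each with p = 0.1 in a two-sided exact permutation test, the smallest value that 3 against 3 arrays can give. The labelled results above are from fits without these differences as terms, so they cannot show what part the differences have.

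Markers of cell type were checked. Of the 10 measured osteocyte and bone markers, Gja1 (12.89 to 13.09), Pdpn (12.20 to 12.77), Cd44, Col1a1 and Phex stood at 6 or more on all 24 arrays, and Dmp1 (2.66 to 2.998), Sost (4.22 to 4.99), Fgf23 (3.43 to 3.84), Mepe and Alpl stood below 6 on all 24. Phex, an osteocyte gene, ranged from 7.73 to 9.17 and differed by position, with means of 8.45, 8.25, 8.09 and 8.95 in the first to the fourth pair (adjusted p = 0.000333, limma). Of the 6 macrophage and leukocyte markers, Ptprc (3.03 to 3.58), Adgre1 (4.32 to 4.80), Cd68 and Itgam stood below 6 on all arrays, Lyz2 reached 6 on 1 array and Csf1r (5.82 to 6.20) on 12. Over positions, 4 of 10 measured osteocyte and bone markers, 0 of 6 macrophage and leukocyte markers, 1 of 3 endothelial markers and 1 of 4 muscle and adipose markers passed, beside 35.9% of all genes.

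Other genes of the folding pathway that are not members were taken from lists. Over flow against sham at the 4 times, 0 genes of any list passed. Over positions, 14 of 21 further J-domain genes passed, beside 35.9% of all genes, as did 3 of 9 further HSP70 and HSP110 genes and exchange factors. So did 5 of 13 further HSP90 co-chaperones and immunophilins, 6 of 10 prefoldin and TRiC-related genes and 1 of 5 tubulin cofactors. Of further small heat shock proteins 0 of 4 passed, and of other heat shock factors and regulators, Hsf4 among them, 0 of 8. Dnaja4, a cytosolic J-domain partner of HSP70, had means of 8.14, 8.30, 8.69 and 8.38 in the first to the fourth pair (adjusted p = 0.000214, limma). St13, which joins HSP70 and HSP90 complexes, had 10.81, 10.91, 11.05 and 11.09 (adjusted p = 0.000771, limma). Both were lowest in the first pair. Of the called genes that are not members, 4 of 14 in the J-domain list, 1 of 3 in the HSP70 and HSP110 list and 4 of 5 in the HSP90 co-chaperone list were lowest there. So were 4 of the 6 called prefoldin and TRiC-related genes. Pfdn6, a subunit of the prefoldin complex that passes actin and tubulin to TRiC, had 10.91, 10.93, 11.10 and 11.24 (adjusted p = 4.95e-05, limma).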

How the data were processed

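Affymetrix arrays (24 in all) measured RNA of MLO-Y4 cells, with 3 arrays per treatment, flow or sham, at every labelled time. The deposited values are log2 signals that the authors made with RMA, which corrects background, normalizes between arrays and summarizes probes into probe sets (version not given in the sources used here). Since RMA quantile-normalizes the arrays to each other, a shift common to all genes is not visible. No read depth applies, and the number of arrays limits the precision. Of 22690 probe sets, 20380 carry 1 gene symbol, 691 several, 1555 none and 64 are controls. The probe set with the highest mean stood for each of 12393 genes.

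Groups were taken from the sample labels. Contrasts were fitted with lmFit and eBayes of limma 3.58.1 in R 4.3.3 over all genes and all 24 arrays, with Benjamini-Hochberg adjustment, and called at an adjusted p-value under 0.05. Column positions were fitted with the block of 8 columns as a term. Scripts ran in Python 3.11.15 with scipy 1.17.1 and pandas 2.3.3, and the fits were tested on simulated data. The members, the lists, the split by position and the rule for genes shown were chosen with earlier results of these data known. Values are given in full or as lowest, median and highest for the 3 members with the smallest p-value at each time, the 6 with the widest range and the 8 with the smallest p-value over positions, and for Hspa1a and Hspa1b. Other values shown are means by pair of positions.

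Alternatives covered other normalization, weights, filters, probe set rules, covariates, blocks and each array left out.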

Additional observations from a re-analysis of the deposited data

How the results depend on the processing

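Calls by label depended on how single arrays were treated. With array weights, members called in flow against sham numbered 9, 5, 17 and 9 at 0, 2, 8 and 24 h (2330, 2312, 3151 and 2361 genes), 24 over the 4 times, 27 for a change between times, 7 between labelled times and 26 over the labelled groups (6024, 5955, 1722 and 6828 of 12393 genes). Without the 8 arrays apart from their label's pair of positions, an alternative chosen after seeing the data, they numbered 11, 8, 14 and 10 at the 4 times (2367, 2422, 2621 and 2909 genes), then 22, 21, 7 and 19 in the same order (4961, 5113, 2089 and 5126 genes). With the pair of positions as a block, also chosen after seeing the data, 18 members at 0 h and 12 at 8 h had a higher mean in flow. In that fit 1 member was called between labelled times and 1 over the labelled groups, beside 5.05% and 1.99% of genes. Leaving out each array in turn, members called ranged from 0 to 0 at 0 h, 2 h and 24 h, from 0 to 6 at 8 h (6 without flow 8 h replicate 1), from 0 to 7 over the 4 times, from 0 to 10 for a change between times, from 0 to 1 between labelled times and from 0 to 8 over the labelled groups. All genes called reached 117 at 2 h without sham 2 h replicate 3, 672 at 8 h without flow 8 h replicate 1, 301 at 8 h without sham 8 h replicate 3 and 278 at 24 h without sham 24 h replicate 3. They ranged from 0 to 1394 over the 4 times, 0 to 2045 for a change between times, 66 to 136 between labelled times and 23 to 867 over the labelled groups. In the same fits, members with a higher mean ranged from 23 to 31, 16 to 22, 5 to 9 and 20 to 24 at the 4 times.

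Same-numbered flow and sham arrays did not deviate together (correlations between -0.346 and 0.192, over 0.1 in 2 of 12 pairs). The array apart from its label's pair of positions is replicate 3 in each sham group and replicate 1 in each flow group. Deviations from the label mean therefore also carry position, so this check cannot decide whether flow and sham arrays were paired. With a replicate block, 0 members were called at each time, and over the labelled groups 40 genes were called, against 82 without it.

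Over positions, leaving out each array gave 16 to 21 members called, beside 4014 to 4686 of 12393 genes. In the 3 steps from each pair to the next it gave 3 to 9, 4 to 8 and 5 to 8 members, beside 287 to 868, 1738 to 2389 and 2220 to 2828 genes. The lowest member counts were 3 without flow 8 h replicate 3 for the first of these steps, and 5 without sham 8 h replicate 3 or flow 8 h replicate 1 for the last. With the 3′ and 5′ control differences as terms 5 members were called over positions (10.1% of genes), 0 in the second against the first pair and 0 in the fourth against the third. At an adjusted p-value under 0.1, 6 members were called for a change between times, beside 11.4% of genes. At that threshold 10 members were called in the second against the first pair, 10 in the third against the second and 1 between blocks. Shares of all genes are not given for these counts by position or for the counts by position in the rest of this paragraph. None of them can therefore be set against all genes. The third against the second pair gave 11 with trend and robust moderation and 11 with the filter on dim genes, and the fourth against the third gave 5 after a further quantile normalization. With the mean of all probe sets, Hspa4 at 24 h was 0.068 and Dnaja1 in the third against the second pair -0.065, both with the opposite sign. With that rule 16 members were called over positions, 14 of them among the 19, and Dnaja1, Hspa4, Cct8, Fkbp4 and Hspa1b were not. The 2-unit element was in 51.6% of members. The causes were not tested. Values near background, as for Hspa1a, limit what can be read.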

Other observations

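Chaperones of the endoplasmic reticulum, which fold secreted and membrane proteins, also differed by position. Of 16 measured genes, 11 passed the test over positions at an adjusted p-value under 0.05 (limma), beside 35.9% of all genes, and 0 passed over flow against sham. The protein disulfide isomerase Pdia6 had means of 12.17, 12.30, 12.50 and 12.70 in the first to the fourth pair of positions (adjusted p = 2.70e-05, limma), and Pdia4 had 10.73, 10.76, 11.18 and 11.37 (adjusted p = 5.51e-05, limma). Creld2, a gene of the unfolded protein response, was highest in the third pair, with 10.998, 11.25, 11.57 and 11.25 (adjusted p = 0.000245, limma). By label, the median difference of these 16 genes, flow minus sham, was 0.170, -0.058, -0.162 and 0.124 at 0, 2, 8 and 24 h. The list shares J-domain genes with the J-domain list of the report.

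Of 12 measured genes outside the gene set that are known to be induced through Hsf1, 8 passed over positions, beside 35.9% of all genes. Gadd45b, a stress response gene, had means of 9.77, 9.84, 8.84 and 8.37 in the first to the fourth pair (adjusted p = 3.51e-05, limma), and Rgs2, a regulator of G protein signalling, had 9.503, 7.92, 7.63 and 8.45 (adjusted p = 0.000650, limma). Of these 8 genes, 2 had their highest mean in the first pair and 2 their lowest. Lowest there were Sqstm1, an autophagy receptor, with 12.60, 12.94, 12.71 and 12.78, and Dedd2, with 5.75, 5.90, 5.90 and 6.11 (adjusted p = 0.0051 and 0.0273, limma), both named after their values were seen. Further mitochondrial chaperones and proteases passed in 6 of 10 cases, with Hscb at 7.68, 7.76, 7.85 and 8.23 (adjusted p = 1.19e-05, limma). Proteasome subunits passed in 8 of 26 cases, beside the same 35.9% of all genes, with Psma1 at 11.73, 11.79, 11.94 and 11.99 (adjusted p = 0.000122, limma).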
